A study of Mus musculus with 6 samples.

Results

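The genes described here are 34 macrophage and monocyte genes, taken by symbol from the 25251 genes of a bulk RNA sequencing table of CT26 tumours. Each symbol matched 1 row of the table. They were sorted by textbook role into 19 pan-macrophage genes, 4 monocyte genes, 10 genes of alternatively activated or resident macrophages, and 1 inflammatory gene, Nos2. The 6 samples were subcutaneous tumours of BALB/c mice, 3 treated with irinotecan and 3 with solvent, all labelled as genotype WT and grown from CT26, a mouse colon carcinoma line. Irinotecan, also called CPT-11, is a prodrug of a topoisomerase I poison and was injected intraperitoneally at 25 mg/kg every 4 days, after randomization at a tumour volume of 100 mm3. The sources used here give neither mouse age, solvent composition nor the time from last dose to collection. The series text speaks of duplicates, yet 3 samples a group are labelled and used. Nothing states that each came from its own mouse, and the spread behind each p-value may then be partly technical. A whole tumour holds cancer, stromal and immune cells, and in such bulk RNA fewer macrophages and less RNA per macrophage cannot be told apart.

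Tumour macrophages arise largely from circulating monocytes, which leave the blood through the chemokine receptor Ccr2 and differentiate under signals through the receptor Csf1r. As phagocytes they clear dying cells and antibody-coated targets, using Fc receptors, complement C1q, Mertk and lipid-handling proteins such as Apoe and Trem2. Mouse macrophages exposed to interleukin-4 or interleukin-13 turn on an alternative programme with arginase, mannose receptor and C-type lectin genes. Interferon-gamma with microbial products instead turns on the nitric oxide synthase gene Nos2.

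The libraries held 13940650 to 15656894 reads recovered from the deposited values. Macrophage identity genes were well covered, and the labels call the cells colon cancer cells. Of the 6 epithelial markers Krt20 had 1608 to 2098 normalized counts over the libraries, Krt18 had 46.2 to 142 and Krt8 had 37.0 to 149, while Epcam, Krt19 and Cdx2 had at most 4.84. Irinotecan replicate 1 stood apart: the correlation of its log2 values with each of the other 5 libraries, taken over genes, was 0.932 to 0.941, whereas the 10 remaining pairs had 0.975 to 0.985. At a similar number of reads, that library had reads for 19040 genes, against 20571 to 21426 in the others. It had a single read for 544 genes, against 1391 to 1692 in the others. Why it differed was not tested. Values are therefore given with and without that library.

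No member passed the test across all genes. Values are normalized read counts, and fold changes are irinotecan over control on log2(normalized count + 1), tested with limma and adjusted over 14639 genes with a mean count of at least 10. Of the 34 members 32 reached that mean, and 0 of them were called in either direction at an adjusted p under 0.05, as were 0% of all genes tested. The authors' deposited table had an adjusted p under 0.05 for 0.111% of its genes as higher and 0.0753% as lower, with 0 members among them. DESeq2 on the recovered reads called 28 genes higher and 19 lower, or 0.2% and 0.136% of 13984 genes, with 0 members. The authors' values gave the same counts, 28 and 19, out of 25244 genes, so the shares differ only through the number of genes. The adjusted p of Mrc1 was 0.105 in both, so this fit repeats the authors' result and is not a separate one. By limma 7 members had an unadjusted p under 0.05 with lower values in irinotecan libraries, namely Mrc1, Nos2, Spp1, Lyve1, Adgre1, Cd14 and Folr2, as had 451 genes or 3.08% of all tested. In the other direction 0 members did, against 393 genes or 2.68%. The log2 fold change was negative for 27 of 32 members, against 51.8% of all genes tested, and its median was -0.41, against -0.014 over all genes.

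The 4 classes had different medians. The 19 pan-macrophage genes had a median log2 fold change of -0.35, with 17 negative and 2 positive. For the 8 tested genes of the alternatively activated class it was -0.69, with all 8 negative, and for the 4 monocyte genes 0.12, with 3 positive. Nos2, the inflammatory gene, had -0.78. The pan-macrophage median rested largely on 1 library. Irinotecan replicate 1 was the lowest of the 6 libraries for 25 of the 32 members, or 78.1%, against 36.8% of all genes tested. It was the highest for 0 members, against 34.2% of all genes. Without it the pan-macrophage median was -0.0057, the alternatively activated median -0.41 and the monocyte median 0.28, while the count of negative fold changes was 19 of 32, against 50.4% of all genes. Limma without that library called 0.0137% of genes higher and 0% lower, with 0 members among them.

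**Figure D1:**
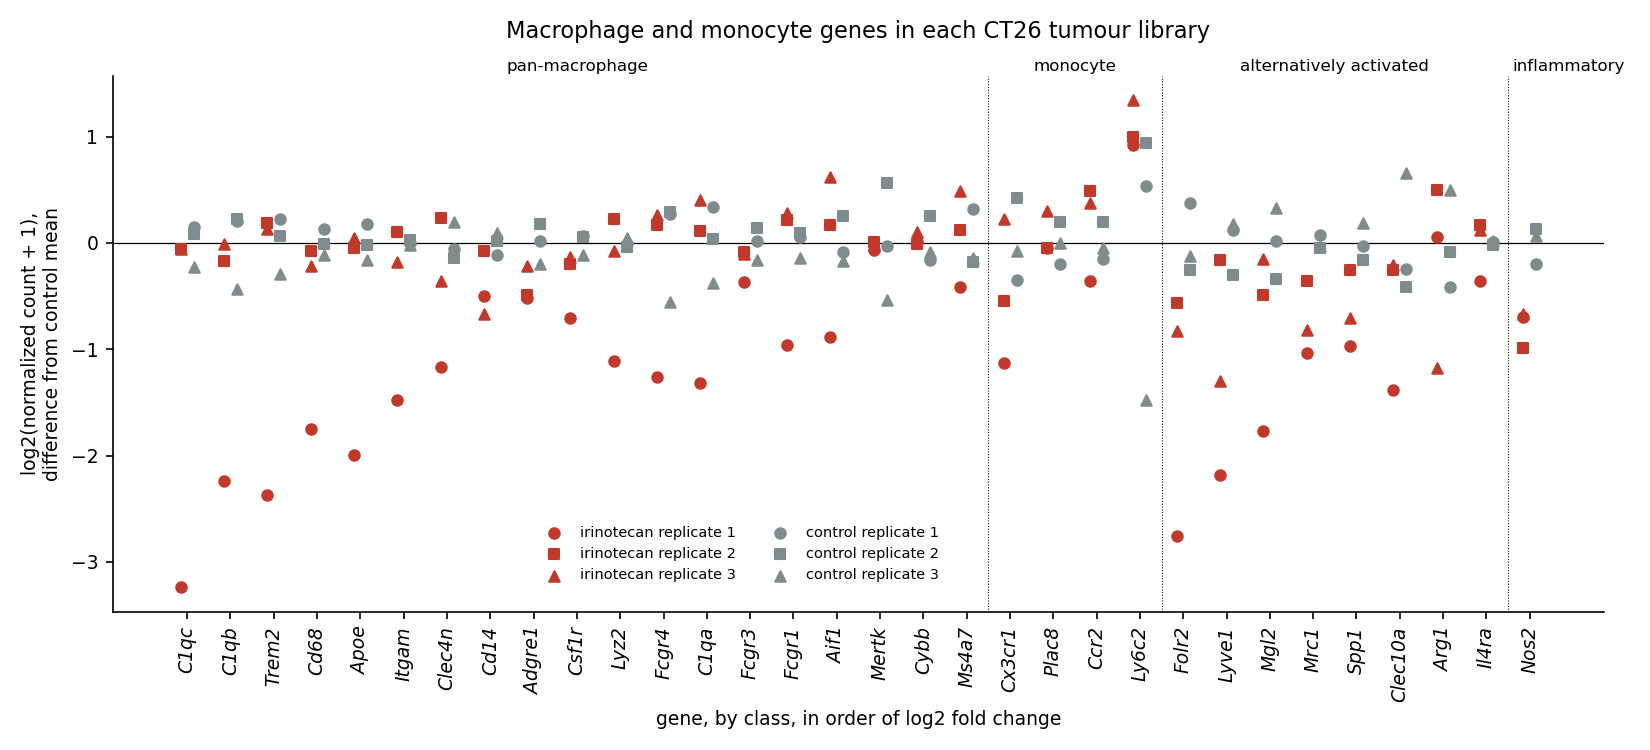
Difference of log2(normalized count + 1) from the control mean (vertical axis) for the 32 tested members, grouped by class, with irinotecan libraries in red to the left of controls in grey and replicates 1, 2 and 3 as circles, squares and triangles. Irinotecan replicate 1 is the lowest point for 25 members, and irinotecan replicate 2 lies within or above the control range for 17 of the 19 pan-macrophage genes.

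In 6 members the 3 irinotecan libraries all lay below the 3 controls, which is 18.8% of the 32, against 7.89% of all genes tested. They were Mrc1, Spp1, Nos2, Adgre1, Csf1r and Folr2. No member had all irinotecan libraries above the controls, against 6.68% of all genes. Leaving out irinotecan replicate 1 loosens this rule, so those 6 members had to meet it again. No further member joined them on the low side, so the share stayed at 18.8%, against 13.7% of all genes. On the high side 4 members met the looser rule, Fcgr1, Ccr2, Ly6c2 and Il4ra, or 12.5%, against 12.8% of all genes.

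Mrc1 encodes the mannose receptor CD206, an endocytic lectin of alternatively activated and resident macrophages, on chromosome 2 from 14229392 to 14332057 of GRCm38. It had 2409, 3829 and 2783 normalized counts in irinotecan replicates 1, 2 and 3, against 5191, 4775 and 4809 in control replicates 1, 2 and 3. The highest irinotecan library thus held fewer counts than the lowest control. Its mean was 3007 ± 736 normalized counts with irinotecan and 4925 ± 231 in controls (SD, n = 3 each). On the log2 scale the fold change was -0.74 (SE 0.18), with a limma adjusted p = 0.743. Without irinotecan replicate 1 the value was -0.59, and the adjusted p was 0.123 by limma, 0.160 by edgeR and 0.00564 by DESeq2. That DESeq2 fit was chosen after the data were seen and called 0.541% of genes higher and 0.563% lower. Mrc1 was its only called member, and no other fit that was run called any.

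Spp1 encodes osteopontin, a secreted glycoprotein made by tumour-associated macrophages and also by many carcinoma cells, on chromosome 5 from 104435118 to 104441050. Spp1 had 58016, 95504 and 69883 normalized counts in irinotecan replicates 1, 2 and 3, against 111501, 101944 and 129505 in control replicates 1, 2 and 3. The groups did not overlap, and irinotecan replicate 2 came closest to the controls. The log2 fold change was -0.64 (SE 0.24), and -0.48 without irinotecan replicate 1. The adjusted p by limma was 0.743. Because several cell types make osteopontin, the share of these reads from macrophages cannot be read from bulk RNA.

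The promoters of Mrc1 and Spp1 are shown because they are the most abundant of the 6 non-overlapping members per length. Each is the 250 bases before the gene's start in RefSeq on GRCm38.p6, 5′ to 3′ on the gene's strand, with matches to GAGGAA or its reverse complement in capitals. GAGGAA is a core sequence bound by PU.1, the transcription factor that macrophage development depends on.
Mrc1, chr2:14229164-14229413, plus strand: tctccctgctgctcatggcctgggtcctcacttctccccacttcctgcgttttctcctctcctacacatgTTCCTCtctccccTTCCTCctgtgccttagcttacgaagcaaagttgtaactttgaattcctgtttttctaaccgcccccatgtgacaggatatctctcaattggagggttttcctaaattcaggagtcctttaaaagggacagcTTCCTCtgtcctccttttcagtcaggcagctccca
Spp1, chr5:104434861-104435110, plus strand: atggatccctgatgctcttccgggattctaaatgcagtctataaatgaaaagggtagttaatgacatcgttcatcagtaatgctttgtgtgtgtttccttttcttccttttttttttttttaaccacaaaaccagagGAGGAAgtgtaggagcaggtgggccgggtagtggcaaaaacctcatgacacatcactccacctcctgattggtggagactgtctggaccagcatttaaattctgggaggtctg
The Mrc1 window held 3 matches, the nearest ending 29 bases before the start, and the Spp1 window held 1 that ended 107 bases before it. RefSeq lists 2 starts for Spp1, and the one nearer the deposited gene start is shown. The bases after the RefSeq start matched the beginning of a GENCODE M21 transcript for Mrc1 but not for Spp1. Neither window held the STAT6 sequence, TTC and GAA with 4 unspecified bases between them, on either strand. It can share bases with GAGGAA. Of the 34 members 25 had a promoter in the table, and 16 of the 25, or 64%, held GAGGAA, against 23.25% of all 32851 promoters listed. The STAT6 sequence was in 2 of the 25 and in 5.85% of all promoters. A match is a description of the letters and not evidence of binding.

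Nos2, on chromosome 11 from 78920787 to 78960254, encodes the inducible nitric oxide synthase, which makes nitric oxide from arginine. It had 70.8, 57.8 and 72.0 normalized counts in irinotecan replicates 1, 2 and 3, against 100.0, 127 and 121 in control replicates 1, 2 and 3. All irinotecan libraries lay between 57.8 and 72.0, below every control, and irinotecan replicate 1 was not the lowest. The log2 fold change was -0.78 (SE 0.23) with an adjusted p = 0.743 by limma, and -0.83 without irinotecan replicate 1. Arg1, whose enzyme arginase uses the same amino acid and which marks alternative activation, had 703, 954 and 299 normalized counts in irinotecan replicates 1, 2 and 3, against 508, 635 and 955 in control replicates 1, 2 and 3. Its groups overlapped, and the log2 fold change of -0.20 (SE 0.41) turned positive without irinotecan replicate 3 (0.28) or without control replicate 3 (0.045), and was -0.34 without irinotecan replicate 1. Nos2 and Arg1 are both also transcribed in neutrophils. The summed level of 9 neutrophil markers was 391 to 426 normalized counts with irinotecan, against 804 to 1059 in controls, with Mpo and Elane at no more than 4.18 in any library. Of the tested markers Lcn2 and Mmp9 had the highest control means, at 286 and 253, and the cells behind them were not tested. All 6 tested markers had a negative log2 fold change, against 51.8% of all genes tested. For 5 of them the unadjusted p was under 0.05 by limma, as for 3.08% of all genes with lower values. The median of the 6 was -1.32, or -1.51 without irinotecan replicate 1. Without it Csf3r moved from -0.89 to -0.30 and Cxcr2 from -2.13 to -1.48, while Lcn2, Mmp9, S100a8 and S100a9 became more negative. In Lcn2, Mmp9, Cxcr2 and Csf3r every irinotecan library lay below the controls, as for 7.89% of all genes tested, while S100a8 and S100a9 overlapped. S100a9 had 53.4 normalized counts in irinotecan replicate 1, against 44.96 in control replicate 2. The part of neutrophils in the Nos2 values was not tested.

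Adgre1 and Csf1r, the F4/80 antigen and the receptor for colony-stimulating factor 1, are general macrophage markers. Adgre1 had 449.7, 459 and 555 normalized counts with irinotecan, against 656, 729.8 and 564 in controls. The irinotecan group ended at 555 and the controls began at 564, so the groups were barely apart, with a log2 fold change of -0.41 (SE 0.16) and -0.35 without irinotecan replicate 1. Csf1r had 1151, 1638 and 1720.0 normalized counts with irinotecan, against 1964, 1954 and 1734 in controls. Here irinotecan replicate 3 lay just under control replicate 3, and the log2 fold change of -0.35 (SE 0.17) was -0.16 without irinotecan replicate 1. Csf1r shares exon sequence on the opposite strand with Hmgxb3, and without a stated strand setting their overlapping reads cannot be told apart. Folr2, the folate receptor beta of resident macrophages, was a low gene with 6.16, 31.8 and 26.4 normalized counts with irinotecan, against 61.7, 39.7 and 43.6 in controls. Its log2 fold change of -1.38 (SE 0.59) was -0.69 without irinotecan replicate 1, a replicate with only 6 reads for this gene, and Folr2 too overlaps an opposite-strand gene, as do Cx3cr1 and Il4ra. Itgam and Spp1 overlap gene models on their own strand.

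**Figure D2:**
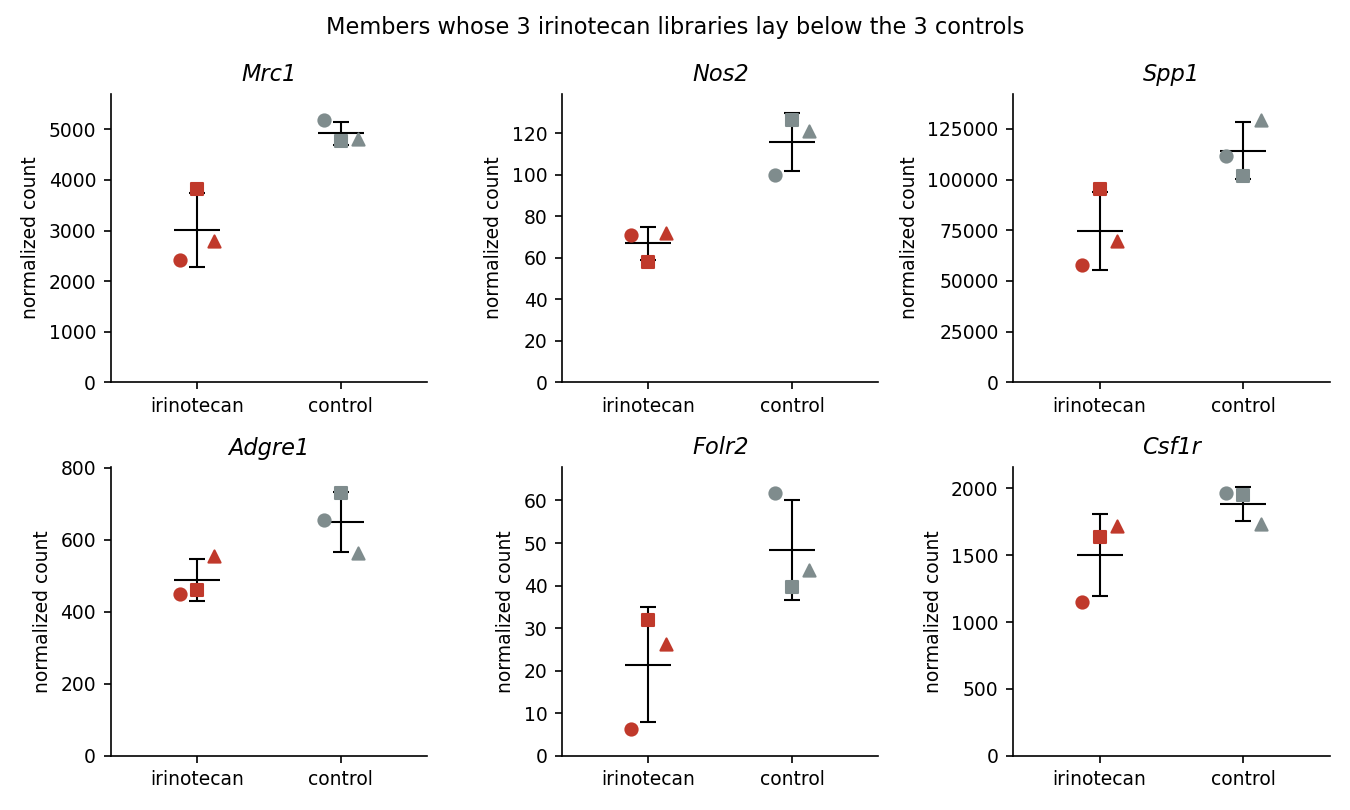
Normalized counts (vertical axes, from 0) of the 6 members whose irinotecan libraries (red, left) all lay below the controls (grey, right), with replicates 1, 2 and 3 as circles, squares and triangles and bars for the mean ± SD (n = 3 each). Mrc1 and Nos2 have an open gap between the groups, and Adgre1 and Csf1r nearly touch.

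Cd68, Itgam, Lyz2 and Aif1 had their lowest value in irinotecan replicate 1, while replicates 2 and 3 lay within, above or below the control range. Cd68, a lysosomal membrane glycoprotein, had 298, 954 and 864 normalized counts with irinotecan, against 1099, 994 and 927 in controls. Replicate 1 held less than any other library, and the log2 fold change of -0.68 (SE 0.39) was -0.15 without it. Itgam, the CD11b integrin chain of macrophages and neutrophils, had 294, 882 and 725 normalized counts with irinotecan, against 819, 834 and 807 in controls. Its controls lay within 807 to 834, and irinotecan replicates 2 and 3 lay on either side of them, at 882 and 725. The log2 fold change of -0.52 was -0.036 without replicate 1. Lyz2, the lysozyme of myeloid cells, had 6247, 15758 and 12757 normalized counts with irinotecan, against 13359, 13075 and 13933 in controls. The other irinotecan libraries were above and just below the control range, and the log2 fold change of -0.32 turned to 0.076 without replicate 1. Lysozyme paralogue reads may be shared between Lyz1 and Lyz2, which are closely similar. Aif1, the actin-binding protein IBA1, had 84.2, 175 and 239 normalized counts with irinotecan, against 147, 186 and 138 in controls, and its log2 fold change of -0.032 became 0.39 without replicate 1.

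Cd14, the co-receptor for bacterial lipopolysaccharide, differed in its pattern. It had 1091, 1468 and 970.0 normalized counts with irinotecan, against 1428, 1568 and 1646 in controls. Irinotecan replicate 3, not replicate 1, was lowest, and replicate 2 lay inside the control range. Its log2 fold change was -0.41 (SE 0.17), and -0.37 without replicate 1. Cybb, the catalytic subunit of the phagocyte NADPH oxidase, had 1019, 1004 and 1082 normalized counts with irinotecan, against 903, 1200.3 and 951 in controls. All irinotecan libraries sat within the control range, replicate 1 included, with a log2 fold change of 0.034 (SE 0.15), or 0.045 without it. Ms4a7, a membrane protein of macrophages, ranged over 232 to 435 normalized counts with irinotecan, against 273 to 387 in controls, with a log2 fold change of 0.064, or 0.30 without replicate 1. Clec4n, the fungal-sensing lectin Dectin-2, had 231 to 613 normalized counts with irinotecan, against 473 to 598 in controls, with a log2 fold change of -0.43 that was -0.063 without replicate 1.

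The 3 activating Fc receptor genes for immunoglobulin G had log2 fold changes between -0.27 and -0.16, and none was called. Fcgr1, the high-affinity receptor, had 272, 614 and 646 normalized counts with irinotecan, against 551, 565 and 480.3 in controls. Replicates 2 and 3 were above every control while replicate 1 was below them, so the log2 fold change of -0.16 (SE 0.31) turned to 0.25 without replicate 1. Fcgr4 had 138, 371 and 397 normalized counts with irinotecan, against 398, 404 and 224 in controls. Control replicate 3 was itself well below the other controls, and the log2 fold change was -0.27 (SE 0.42), or 0.22 without irinotecan replicate 1. Of the 3 genes Fcgr3 spanned the narrowest range, at 333 to 404 normalized counts with irinotecan, against 382 to 474 in controls, with a log2 fold change of -0.19, or -0.096 without replicate 1. Fc receptor genes are related in sequence and may share reads.

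Several genes for clearing dying cells varied widely within the irinotecan group. C1qa, C1qb and C1qc encode the chains of C1q, the recognition unit of the classical complement pathway, and are neighbours on chromosome 4. C1qc had 204, 1861 and 1858 normalized counts with irinotecan, against 2142, 2051 and 1650.0 in controls. C1qb had 411, 1716 and 1926 normalized counts with irinotecan, against 2239, 2264 and 1432 in controls. C1qa had 469, 1270.4 and 1548 normalized counts with irinotecan, against 1485, 1203 and 904 in controls. For all 3 genes irinotecan replicate 1 lay below every other library, and the mean of the other 5 libraries was 9.36, 4.66 and 2.73 times its value for C1qc, C1qb and C1qa. Irinotecan replicates 2 and 3 lay among or close to the controls. The fitted log2 fold changes were -1.12 (SE 0.75) for C1qc, -0.81 (SE 0.53) for C1qb and -0.27 (SE 0.41) for C1qa, and -0.058, -0.091 and 0.26 without replicate 1.

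The promoters of C1qb and C1qc are shown in the same format because the ratio of these neighbouring genes in that library lay outside that of the other 5.
C1qb, chr4:136886201-136886450, minus strand: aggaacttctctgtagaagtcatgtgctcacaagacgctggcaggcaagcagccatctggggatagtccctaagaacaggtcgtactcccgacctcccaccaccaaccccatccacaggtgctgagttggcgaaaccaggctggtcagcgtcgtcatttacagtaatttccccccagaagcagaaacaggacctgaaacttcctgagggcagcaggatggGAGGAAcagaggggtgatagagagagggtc
C1qc, chr4:136892915-136893164, minus strand: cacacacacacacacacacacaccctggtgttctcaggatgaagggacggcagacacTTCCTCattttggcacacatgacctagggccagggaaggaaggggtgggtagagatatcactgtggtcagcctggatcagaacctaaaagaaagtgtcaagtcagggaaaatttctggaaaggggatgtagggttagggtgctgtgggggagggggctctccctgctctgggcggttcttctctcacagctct
Each held 1 match to GAGGAA, ending 24 bases before the RefSeq start in C1qb and 187 in C1qc, and neither held the STAT6 sequence. The deposited 5′ ends were 136886187 for C1qb and 136893065 for C1qc. The C1qc window thus reaches into the deposited gene and that of C1qb does not, so these distances cannot be compared. The bases after the RefSeq start matched the beginning of a GENCODE M21 transcript for C1qc but not for C1qb. C1qa had no entry in the promoter table.

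The balance between the C1q chains also differed in irinotecan replicate 1. Per kilobase of the deposited gene length, the ratio of C1qa to C1qc was 4.26, 1.27 and 1.55 in irinotecan replicates 1, 2 and 3, against 1.29, 1.09 and 1.02 in the controls. Replicate 1 lay above the range of 1.02 to 1.55 of the other libraries. The ratio of C1qc to C1qb was 0.280, 0.611 and 0.544 in irinotecan replicates 1, 2 and 3, against 0.539, 0.511 and 0.649 in the controls, and here replicate 1 lay below all others. The factor of a library cancels in such a ratio. C1qa, C1qb and C1qc had 59.5%, 57.4% and 56.6% GC and deposited lengths of 1040, 1088 and 1931 bases. The part of GC content or length in these ratios was not tested.

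Apoe, an apolipoprotein that carries cholesterol out of lipid-loaded macrophages, had 770.1, 2969 and 3179.5 normalized counts with irinotecan, against 3485, 3021 and 2753 in controls. Trem2, a lipid-sensing receptor of tumour macrophages, had 46.2, 277 and 267 normalized counts with irinotecan, against 284, 254 and 199 in controls. Both had their single low value in irinotecan replicate 1. For Apoe the log2 fold change was -0.66 (SE 0.48) and for Trem2 -0.68 (SE 0.62), and they were 0.00050 and 0.16 without it. Mertk, the kinase receptor that engulfs apoptotic cells, had 187, 196 and 193 normalized counts with irinotecan, against 192, 289 and 135 in controls. The irinotecan libraries of Mertk spanned 187 to 196 and lay inside a control range of 135 to 289, with a log2 fold change of -0.025 (SE 0.27), or -0.0057 without replicate 1.

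**Figure D3:**
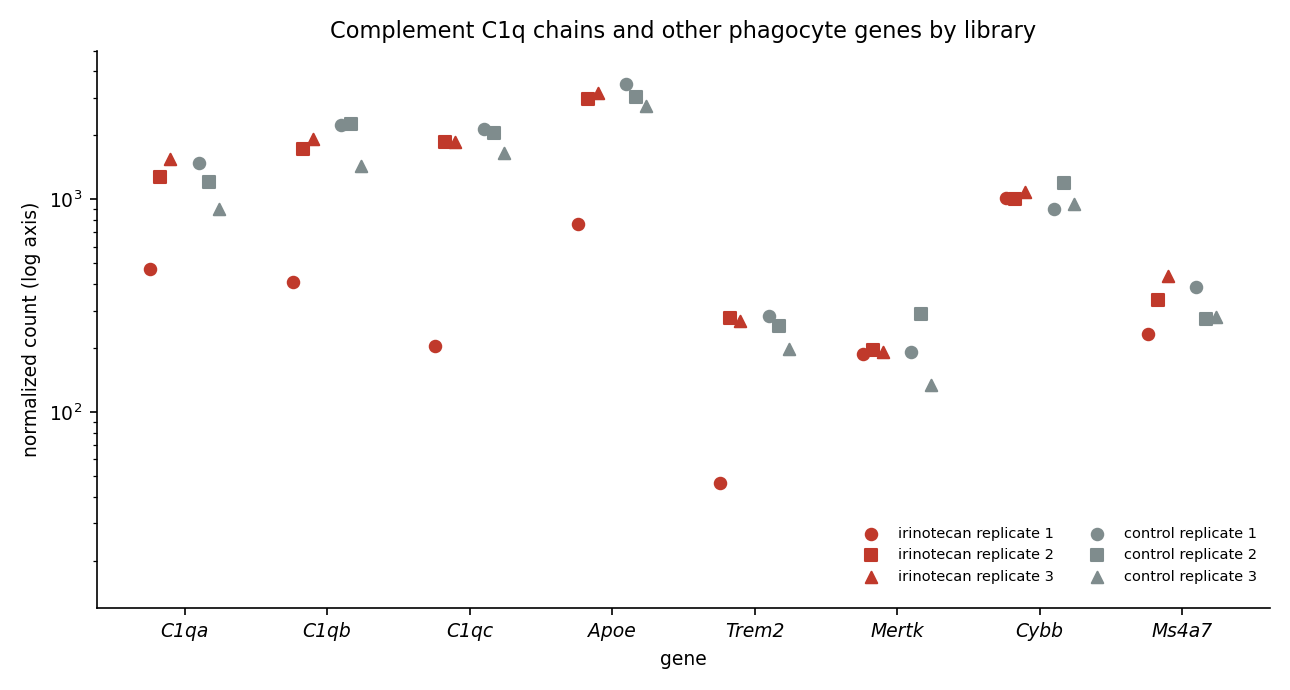
Normalized counts on a log axis of the C1q chain genes and other phagocyte genes in each library, irinotecan in red to the left of controls in grey, replicates 1, 2 and 3 as circles, squares and triangles. C1qc, C1qb, Apoe and Trem2 have their low point in irinotecan replicate 1, while Mertk and Cybb do not.

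The values of that library were also set against base composition and length. Over all genes tested, the median difference of irinotecan replicate 1 from the control mean was 0.24 for 3246 genes under 45% GC. It was 0.040 for 7921 genes at 45 to 55% and -0.44 for 3453 genes at 55% GC or more. For members it was -0.41 for 5 genes under 45% GC, -0.96 for 21 genes at 45 to 55% and -2.11 for 6 genes at 55% or more, so members lay below the all-gene median in each bin. By length, members under 1500 bases had a median of -1.29 (6 genes, -0.40 over all genes). Those of 1500 to 4000 bases had -0.96 (15 genes, -0.24 over all genes), and those of 4000 bases or more had -0.69 (11 genes, 0.17 over all genes). That library was the lowest for 4 of the 5 members under 45% GC, 15 of the 21 at 45 to 55% and 6 of the 6 at 55% or more. The 25 members lowest there had a median GC content of 50.7% (39.0 to 60.6%), and the other 7 had 48.0% (42.4 to 53.9%), so the ranges overlapped. In replicates 2 and 3 the 6 members at 55% GC or more had medians of 0.033 and 0.087. With a smooth trend on GC content and length removed from every library, the group comparison gave a pan-macrophage median of -0.29 and an alternatively activated median of -0.69. The bins took GC content and length separately, and the part of either in the low member values was not tested.

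Monocyte genes had library medians, as log2 differences from the control mean, of -0.20, 0.22 and 0.34 in irinotecan replicates 1, 2 and 3, and -0.17, 0.31 and -0.059 in control replicates 1, 2 and 3. Ccr2, the chemokine receptor of recruited monocytes, had 889, 1604 and 1482 normalized counts with irinotecan, against 1028, 1308 and 1108 in controls. Replicates 2 and 3 lay above all controls and replicate 1 below them, so the log2 fold change was 0.17 (SE 0.23) with all libraries and 0.43 without replicate 1, where the limma adjusted p was 0.250. Plac8, a small cysteine-rich protein of monocytes and other leukocytes, had 1050.4 to 1339 normalized counts with irinotecan, against 948 to 1244 in controls, with a log2 fold change of 0.069 (SE 0.16), or 0.13 without replicate 1. Cx3cr1, the fractalkine receptor of patrolling monocytes and macrophages, had 238, 357 and 608 normalized counts with irinotecan, against 408, 701 and 495 in controls. Its groups overlapped, with a log2 fold change of -0.48 (SE 0.34) and -0.16 without replicate 1. Ly6c2, the antigen of classical mouse monocytes, was near the detection floor with 24.6, 26.0 and 33.4 normalized counts with irinotecan, against 18.7, 25.1 and 3.87 in controls. Control replicate 3 held only 4 reads, and the log2 fold change of 1.08 (SE 0.64) was 0.34 without that control and 1.17 without irinotecan replicate 1. Reads may also be shared with the close paralogue Ly6c1.

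Of the remaining alternatively activated genes Il4ra was well covered and the others were low. Lyve1, a hyaluronan receptor of perivascular macrophages and of lymphatic endothelium, had 40.0, 166 and 75.0 normalized counts with irinotecan, against 203, 151 and 210.1 in controls. Irinotecan replicate 2 lay within the control range and the other irinotecan libraries below it, with a log2 fold change of -1.22 (SE 0.46), or -0.73 without replicate 1. Among lymphatic endothelium markers Prox1, its defining factor, had at most 1.87 normalized counts in any library. Flt4, a growth factor receptor of that endothelium, had 51.3, 23.1 and 48.7 normalized counts with irinotecan, against 67.3, 57.5 and 45.5 in controls. Its groups overlapped, with a log2 fold change of -0.52 (SE 0.38), or -0.72 without replicate 1. The summed level of the 4 lymphatic markers in the table was 437 to 894 with irinotecan, against 678 to 786 in controls, most of it Pdpn, which fibroblasts also make, and the part of such cells in the Lyve1 values was not tested.

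Mgl2 and Clec10a are neighbouring genes for galactose-type lectins of macrophages and dendritic cells. Mgl2 had 30.8, 76.1 and 96.3 normalized counts with irinotecan, against 108, 84.7 and 135 in controls. Clec10a had 24.6, 54.9 and 56.8 normalized counts with irinotecan, against 55.2, 49.1 and 105 in controls. In both, irinotecan replicate 1 was the lowest library and replicates 2 and 3 overlapped the controls, except that replicate 2 of Mgl2 lay below them. On the log2 scale the fold change was -0.80 (SE 0.42) for Mgl2 and -0.61 (SE 0.43) for Clec10a, or -0.32 and -0.23 without replicate 1, and paralogue reads may be shared. The summed level of 10 dendritic cell markers was 357 to 603 with irinotecan, against 364 to 500 in controls. Zbtb46 alone had 236, 160 and 190 normalized counts with irinotecan, against 126, 127 and 131 in controls. Of the 9 tested markers 6 had a negative and 3 a positive log2 fold change, against 51.8% negative over all genes. Their median was -0.43, or 0.15 without replicate 1. The part of dendritic cells in the Mgl2 and Clec10a values was not tested. Il4ra, the interleukin-4 receptor chain, had 721, 1038 and 1006 normalized counts with irinotecan, against 926, 909.6 and 933 in controls. Its replicates 2 and 3 lay above a narrow control range and replicate 1 below it, and the log2 fold change was -0.021 (SE 0.17), or 0.15 without replicate 1.

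Retnla and Chil3, classic targets of interleukin-4 in mouse macrophages, were below the filter. Retnla had 0, 0 and 1 reads in irinotecan replicates 1, 2 and 3, against 1, 0 and 2 reads in control replicates 1, 2 and 3. Chil3 had 5, 4 and 0 reads with irinotecan, against 1, 5 and 22 in controls. Both were left out by the filter, so that no call was made on them in the fit reported here. The authors' deposited table gave an adjusted p of 1 for both.

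Set against the pan-macrophage genes of the same library, the alternatively activated genes did not separate the groups. The median of the 8 tested genes minus the median of the 19 pan-macrophage genes, each as a log2 difference from the control mean, was -0.099, -0.26 and -0.74 in irinotecan replicates 1, 2 and 3, against -0.044, -0.27 and 0.34 in control replicates 1, 2 and 3. The ranges overlapped, and the difference between group means was -0.38. For the alternatively activated class alone the library medians were -1.21, -0.25 and -0.76 in irinotecan replicates 1, 2 and 3, and 0.0099, -0.20 and 0.18 in control replicates 1, 2 and 3. Those of the pan-macrophage class were -1.11, 0.0087 and -0.020 in irinotecan replicates 1, 2 and 3, and 0.054, 0.064 and -0.16 in control replicates 1, 2 and 3. Among the 19 pan-macrophage genes, 17 were below the lowest control in irinotecan replicate 1, 2 in replicate 2 and 7 in replicate 3, which is 89.5%, 10.5% and 36.8%, against 41.2%, 25.3% and 29.0% of all genes tested. Among the 8 alternatively activated genes the counts were 7, 4 and 5.

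**Figure D4:**
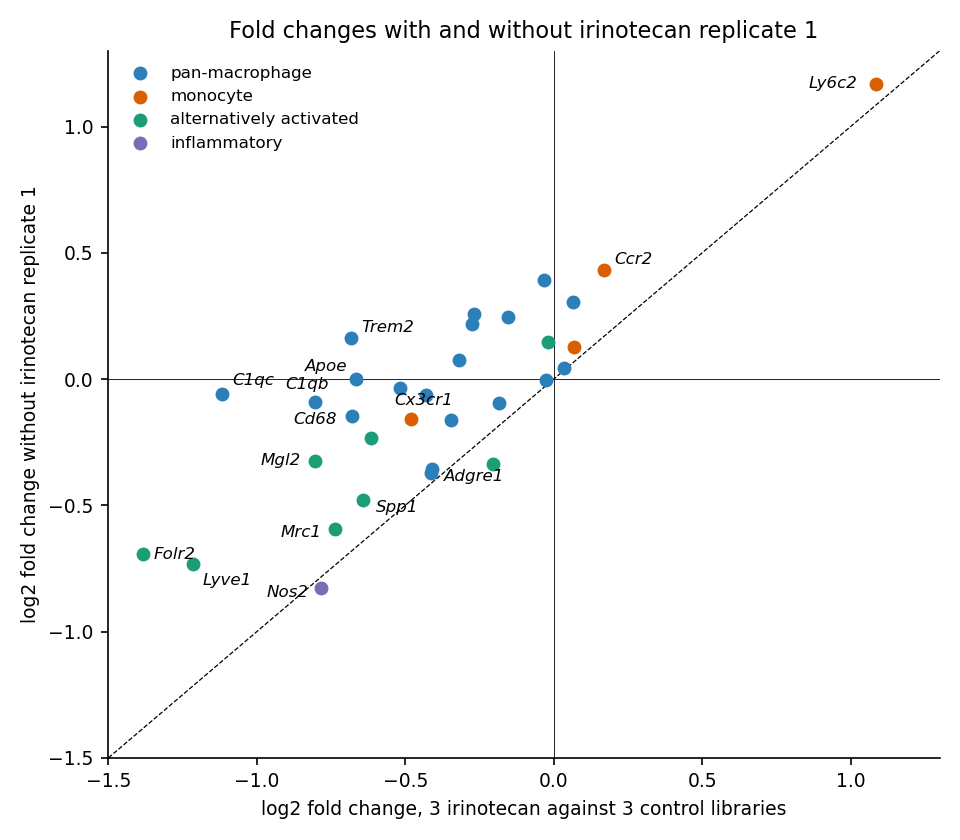
Log2 fold change of each tested member over all libraries (horizontal axis) and without irinotecan replicate 1 (vertical axis), coloured by class, with the line of equal values dashed. Without that library C1qc, Apoe and Trem2 lie between -0.058 and 0.16, whereas Nos2, Mrc1, Spp1, Folr2 and Lyve1 keep a value between -0.48 and -0.83.

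Per kilobase of deposited gene length, which allows levels of different genes to be compared, Spp1 was the most abundant member, at 45187 ± 11626 with irinotecan and 69367 ± 8492 in controls (normalized counts per kilobase, SD, n = 3 each). Lyz2 was next at 8805 ± 3695 with irinotecan and 10225 ± 332 in controls, then C1qb at 1242 ± 755 with irinotecan and 1818 ± 435 in controls. Within controls, C1qb, Apoe, C1qa, C1qc and Cd14 followed each other with overlapping spreads for adjacent genes. Mrc1 was the most abundant alternatively activated gene after Spp1, at 472 ± 115 with irinotecan and 773 ± 36.3 in controls, and Plac8 the most abundant monocyte gene, at 721 ± 104 with irinotecan and 687 ± 93.1 in controls. Arg1 had 293 ± 148 with irinotecan and 314 ± 103 in controls, and Nos2 was far lower at 15.2 ± 1.79 with irinotecan and 26.3 ± 3.17 in controls. Ly6c2 was the lowest tested member in both groups, at 10.2 ± 1.73 with irinotecan and 5.80 ± 3.97 in controls. Next above it in controls was Clec10a, at 15.7 ± 6.22 with irinotecan and 24.0 ± 10.5 in controls, whose spread overlapped that of Nos2.

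Another 5 lists of macrophage pathway genes were examined, with the genes of smallest unadjusted p named in each. No gene of these lists passed the limma test over all genes. Among all genes tested 51.8% had a negative log2 fold change, beside which each list's count is read. These counts include irinotecan replicate 1. Without that library some genes of each list turned positive, and 50.4% of all genes were negative. Of the 9 tested genes for growth and recruitment signals all 9 had a negative log2 fold change, with a median of -0.53, or -0.091 without irinotecan replicate 1. In it Csf2rb, the shared receptor chain for granulocyte-macrophage colony-stimulating factor, had 259.8, 514 and 447 normalized counts with irinotecan, against 598, 583 and 644 in controls. Il34, a second ligand of Csf1r, had 299, 531 and 543 normalized counts with irinotecan, against 632, 658 and 629 in controls. Neither gene's groups overlapped, with a log2 fold change of -0.64 (SE 0.25) for Csf2rb and -0.53 (SE 0.23) for Il34, or -0.34 and -0.25 without replicate 1.

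All 10 macrophage transcription factor genes were negative, with a median of -0.54, or -0.31 without irinotecan replicate 1, and 5 had an unadjusted p under 0.05 by limma, against 51.8% negative and 3.08% under that p with lower values among all genes. Maf, a factor of resident and alternatively activated macrophages, had 574, 989 and 878 normalized counts with irinotecan, against 1336, 1063 and 1173 in controls. Klf4, which acts in monocytes but also in epithelial and endothelial cells, had 1529.9, 1985 and 1768 normalized counts with irinotecan, against 2526, 2094 and 2348 in controls. In both the irinotecan libraries lay below the controls, with a log2 fold change of -0.58 (SE 0.21) for Maf and -0.40 (SE 0.15) for Klf4, or -0.35 and -0.31 without replicate 1. The alternative activation signals had 7 negative and 2 positive among 9 tested, with a median of -0.14, or 0.0071 without replicate 1. Tgfb1, a cytokine that dampens macrophage activation, had a log2 fold change of -0.43 (SE 0.22), and Socs1, an inhibitor of cytokine signalling, -0.56 (SE 0.42). Without replicate 1 the values were -0.18 for Tgfb1 and 0.0071 for Socs1.

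Among 15 tested classical activation genes 11 were negative and 4 positive, with a median of -0.21, or -0.028 without replicate 1. Il1b, the inflammatory cytokine, had 120.1, 277 and 230.1 normalized counts with irinotecan, against 332, 493 and 704 in controls. Its groups did not overlap, and its log2 fold change was -1.30 (SE 0.36), or -0.94 without replicate 1. Of 21 other myeloid and macrophage markers 20 were negative, with a median of -0.33, or -0.14 without replicate 1. The haemoglobin scavenger receptor Cd163 had 179.7, 151 and 182 normalized counts with irinotecan, against 425, 289 and 406 in controls. All its irinotecan libraries were below the controls, with a log2 fold change of -1.11 (SE 0.20), and -1.14 without replicate 1. Gas6, a bridging ligand between apoptotic cells and Mertk, had 172, 294 and 284 normalized counts with irinotecan, against 526, 416 and 382 in controls, with the groups apart and a log2 fold change of -0.84 (SE 0.24), or -0.60 without replicate 1.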

How the data were processed

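RNA of 6 CT26 tumour samples was sequenced, 3 per group. The submitters' processing notes name DESeq2 1.20.0, HISAT2 2.0.5, featureCounts 1.5.0-p3, fastp and CASAVA, and the build GRCm38 (mm10). The sources used here give no annotation release or strand setting. The authors deposited a normalized signal per library, that is, read counts divided by 1 factor per library: 100% of values were whole multiples of the library's smallest value (tolerance 1e-06), and whole reads were recovered by division. Per the file headers, the table also holds the authors' log2 fold changes, their p-values, and gene lengths.

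Members and gene lists were chosen with earlier results of these data known. Genes averaging at least 10 normalized counts were tested on log2(value + 1) with limma 3.58.1 in R 4.3.3 (trend, empirical Bayes, group only, two-sided, Benjamini-Hochberg over 14639 genes, threshold 0.05). Named non-members are the 2 genes with the smallest unadjusted p per pathway list, plus cell type markers; 1 gene so chosen is not reported here. Alternatives were quantile normalization, pseudocounts of 10 and 0.5, no filter, library weights, a replicate block, each library left out, removal of a GC and length trend (GENCODE M21), and edgeR 4.0.16, DESeq2 1.42.0 and limma-voom on recovered reads. The edgeR and DESeq2 fits without irinotecan replicate 1 were added after the data were seen. The tests were checked on simulated counts with the same dispersion for every gene and no outlying library. That check therefore does not cover a library such as irinotecan replicate 1. Libraries of 1 group differed by a chi-square of at least 10.7 per degree of freedom, so none was counted as a duplicate. Pairs with irinotecan replicate 1 had 88.2 and 80.1, and the other pairs at most 13.9. No molecular identifiers are stated, so reads may repeat a molecule and read depth speaks to counting error alone. GC content was known for 99.86% of genes in the table.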

Additional observations from a re-analysis of the deposited data

How the results depend on the processing

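Limma over all 6 libraries called 0 genes (393 higher and 451 lower at an unadjusted p under 0.05). The count was also 0 in both directions with quantile normalization, either other pseudocount, no filter, edgeR or limma-voom over 6 libraries, the GC and length trend removed, and without any single library except irinotecan replicate 1, where 2 genes were called higher (range 0 to 2) and 0 lower. DESeq2 called 28 higher and 19 lower, limma with library weights 30 and 22, edgeR without irinotecan replicate 1 called 2 higher, and DESeq2 without it 74 and 77. In that last fit 1 member was called lower, and in all other fits 0 members were called. Members with irinotecan libraries above the controls numbered 4 without irinotecan replicate 1, or 12.5%, against 12.8% of all genes tested. Replicate numbers were shared by the groups, but samples of the same number did not deviate together (correlations of -0.11, -0.0087 and -0.21 for numbers 1, 2 and 3), and no sample correlated best with its own number. The replicate block called 0 genes and 0 members (249 genes higher and 372 lower at an unadjusted p under 0.05 by limma), and it changed no call. No scaling moved the median of all genes by more than 0.1. Member fold changes that turned sign with quantile normalization were 0.029 for Mertk and 0.040 for Aif1. With edgeR and TMM it was 0.084 for Aif1, with edgeR and DESeq2-type factors 0.086 for Aif1 and 0.0029 for Il4ra, and with DESeq2 0.082 for Aif1. With library weights they were 0.19 for Fcgr1, 0.11 for Fcgr4, 0.13 for C1qa, 0.053 for Lyz2, 0.036 for Trem2, 0.33 for Aif1 and 0.13 for Il4ra. With the GC and length trend removed they were 0.0053 for C1qa, -0.042 for Ms4a7, 0.048 for Aif1, -0.11 for Cybb, -0.031 for Ccr2 and 0.027 for Il4ra. Without irinotecan replicate 1 they were 0.25 for Fcgr1, 0.17 for Fcgr4, 0.24 for C1qa, 0.086 for Lyz2, 0.15 for Trem2, 0.40 for Aif1 and 0.15 for Il4ra with edgeR, and 0.24 for Fcgr1, 0.17 for Fcgr4, 0.23 for C1qa, 0.083 for Lyz2, 0.15 for Trem2, 0.40 for Aif1 and 0.15 for Il4ra with DESeq2. Leaving out each library in turn, limma gave -0.36 to 0.39 for Aif1, -1.02 to 0.00050 for Apoe, -0.56 to 0.28 for Arg1, -0.60 to 0.26 for C1qa, -0.047 to 0.16 for Cybb, -0.37 to 0.25 for Fcgr1, -0.55 to 0.22 for Fcgr4, -0.12 to 0.15 for Il4ra, -0.59 to 0.076 for Lyz2, -0.29 to 0.26 for Mertk, -0.15 to 0.30 for Ms4a7, -0.048 to 0.17 for Plac8 and -1.12 to 0.16 for Trem2. The class medians ranged from -0.49 to -0.0057 for pan-macrophage, 0.0083 to 0.28 for monocyte, -0.88 to -0.41 for alternatively activated and -0.57 to -0.060 for all members, and the alternatively activated minus pan-macrophage difference from -0.51 to -0.19. The cause of these changes was not tested. With 3 samples per group, low genes such as Ly6c2, Folr2 and Clec10a rest on few reads.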

Other observations

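Markers of the remaining cell types are given as summed normalized counts. Blood endothelium markers (5 genes) summed to 1329 to 1769.7 with irinotecan, against 2009.5 to 2353 in controls. Of these 4 of the 5 had a negative log2 fold change, against 51.8% of all genes tested. The median was -0.55, or -0.46 without irinotecan replicate 1. T cell and NK cell markers (8 genes) summed to 305 to 632 with irinotecan, against 308 to 418 in controls. Of their 7 tested genes 6 were positive and 1 negative, with a median of 0.29, or 0.42 without irinotecan replicate 1. By limma 0 of the 7 had an unadjusted p under 0.05. Mast cell and basophil markers summed to 279.7 to 296 with irinotecan and 327 to 441 in controls, and B cell and plasma cell markers to 7.19 to 27.0 with irinotecan and 32.9 to 53.3 in controls. Fibroblast markers summed to 32743 to 35521 with irinotecan and 26802 to 36721 in controls. Epithelial markers summed to 1902 to 2026 with irinotecan and 1819 to 2310 in controls, adipocyte markers to 106 to 363 with irinotecan and 240.5 to 406 in controls, and skeletal muscle markers to 109.9 to 678 with irinotecan and 23.0 to 312 in controls. No gene of these lists passed the limma test over all genes, and their part in the member values was not tested.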
